A study of Mus musculus with 84 samples.

Results

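The developmental lineage transcription factors are 56 genes that direct the formation of tissues other than mature fat, chosen by name and role in development from the Pax, Lhx, Nkx, Tbx, sine oculis (Six2, Six3 and Six6), Irx, Fox, Gata, Sox and basic helix-loop-helix (bHLH) factors, among 21938 protein-coding genes. Their promoters were examined in nuclei of adipocytes from mouse epididymal adipose tissue by CUT&Tag, in which an antibody against a histone mark directs a tagging enzyme to the marked DNA. The 84 libraries comprised 20 for H3K27me3, 21 for H3K4me3, 21 for H3K27ac and 22 for H3K4me1. All mice were AdipoERCre x NuTRAP animals on a C57BL/6 background (spelled C576BL6 in the labels) that had received tamoxifen, so that nuclei of cells with an active adiponectin promoter at that time carried the label. Obese mice were killed after 12 weeks (H, at 18 weeks of age) or 25 weeks (HH, at 31 weeks of age) on high-fat diet. Weight-loss mice returned to chow for 8 weeks after the same exposures (HC, at 26 weeks of age, and HHC, at 39 weeks of age). Each was set against mice kept on chow to the same age, named C for H, CC_s for HC, CC_l for HH and CCC for HHC. Groups held 3 libraries, or 2 in 12 of the 32 combinations of mark and diet.

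Polycomb repressive complex 2 trimethylates lysine 27 of histone H3, and the resulting H3K27me3 domains keep genes of other lineages silent in a differentiated cell. H3K4me3 marks promoters that can be or are transcribed, H3K27ac marks active promoters and enhancers, and H3K4me1 marks enhancers. A promoter that carries H3K27me3 together with H3K4me3 is called bivalent when both are on the same nucleosome, which is best known from embryonic stem cells. CUT&Tag of a pool of nuclei cannot tell a promoter with both marks in 1 cell from a mixture of cells, and a mark in fewer cells cannot be told apart from less of it per cell.

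A promoter was the window of 2000 bp on either side of a transcription start site, and it was marked in a library when a listed peak overlapped it. Domain width is the summed width of the overlapping peaks, including the parts outside the window, and it is 0 without a peak. A peak list holds only the strongest signal blocks of a library, so a promoter without a peak is one below that library's threshold and not one shown to lack the mark. H3K4me3 peaks lay at 9 to 12 of 12 adipocyte marker promoters per library, at 0 to 11 of 11 macrophage, 0 to 8 of 8 lymphocyte, 0 to 7 of 8 endothelial and 0 to 3 of 7 mesothelial ones. They lay at 1 to 7 of 8 progenitor, 0 to 5 of 6 mural, 0 to 5 of 7 epithelial, 0 to 4 of 6 neuron and 2 to 4 of 6 skeletal muscle marker promoters. For 4 of the H3K4me3 libraries (replicate 2 of CC_l, replicates 2 and 3 of HH, replicate 3 of CCC) the title and the treatment field name different diets, the title was used, and gains, losses and calls that rest on them are also given with the treatment field.

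The promoters of 6 members were taken from RefSeq on GRCm38.p6, from 250 bp before to 50 bp after the start, with CG dinucleotides in capitals. The first 3 belong to members that carried both H3K27me3 and H3K4me3 and had a matched RefSeq promoter, in order of how many libraries had H3K27ac. Irx5 and Sox9 also carried both marks and had more H3K27ac libraries than Foxc1, which had none, but no RefSeq promoter was matched for them. The other 3 have the widest H3K27me3 domains of the members. CG-dense promoters are the usual sites of polycomb in mammals.
Atoh1 (chr6:64728875-64729174, plus strand, 20 CG): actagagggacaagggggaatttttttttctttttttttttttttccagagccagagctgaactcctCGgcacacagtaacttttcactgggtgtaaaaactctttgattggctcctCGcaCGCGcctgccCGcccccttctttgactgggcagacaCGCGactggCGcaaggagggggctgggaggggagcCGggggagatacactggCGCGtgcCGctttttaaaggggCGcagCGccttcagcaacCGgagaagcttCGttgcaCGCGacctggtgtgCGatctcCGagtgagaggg
Irx3 (chr8:91801605-91801904, minus strand, 14 CG): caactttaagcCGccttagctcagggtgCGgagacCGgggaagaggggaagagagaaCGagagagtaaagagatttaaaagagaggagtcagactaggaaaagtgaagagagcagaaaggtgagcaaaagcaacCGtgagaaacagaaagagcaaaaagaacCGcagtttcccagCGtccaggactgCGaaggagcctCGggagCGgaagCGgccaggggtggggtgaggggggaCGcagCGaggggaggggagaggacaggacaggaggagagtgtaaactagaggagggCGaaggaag
Foxc1 (chr13:31806396-31806695, plus strand, 32 CG): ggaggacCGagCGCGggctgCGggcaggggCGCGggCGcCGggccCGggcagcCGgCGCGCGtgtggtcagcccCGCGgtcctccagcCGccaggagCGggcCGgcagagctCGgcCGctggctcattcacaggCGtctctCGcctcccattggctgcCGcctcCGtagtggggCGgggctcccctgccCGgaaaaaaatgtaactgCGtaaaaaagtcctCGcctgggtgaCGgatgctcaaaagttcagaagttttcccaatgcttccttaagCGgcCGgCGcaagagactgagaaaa
Olig2 (chr16:91225300-91225599, plus strand, 25 CG): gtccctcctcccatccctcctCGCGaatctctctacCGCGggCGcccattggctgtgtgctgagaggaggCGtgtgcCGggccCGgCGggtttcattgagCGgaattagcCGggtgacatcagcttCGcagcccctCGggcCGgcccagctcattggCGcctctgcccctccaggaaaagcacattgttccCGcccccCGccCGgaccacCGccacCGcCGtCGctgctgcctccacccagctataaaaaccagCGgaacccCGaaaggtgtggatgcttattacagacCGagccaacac
Pax6 (chr2:105668646-105668945, plus strand, 18 CG): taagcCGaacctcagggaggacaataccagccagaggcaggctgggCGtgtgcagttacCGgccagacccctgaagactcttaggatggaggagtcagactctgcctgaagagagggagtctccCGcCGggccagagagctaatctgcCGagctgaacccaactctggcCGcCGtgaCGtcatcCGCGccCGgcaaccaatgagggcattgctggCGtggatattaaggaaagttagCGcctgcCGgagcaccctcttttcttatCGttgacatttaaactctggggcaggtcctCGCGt
Pax2 (chr19:44756656-44756955, plus strand, 30 CG): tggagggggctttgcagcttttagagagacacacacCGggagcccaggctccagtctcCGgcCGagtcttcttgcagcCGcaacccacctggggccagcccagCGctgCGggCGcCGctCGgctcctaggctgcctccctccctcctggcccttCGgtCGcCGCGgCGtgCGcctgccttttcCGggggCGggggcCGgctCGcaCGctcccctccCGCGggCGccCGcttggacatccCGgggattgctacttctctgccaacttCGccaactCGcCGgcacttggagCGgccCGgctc
RefSeq promoters were matched for 42 of the 56 members, and where a gene had several, the one with the most CG was taken. The dinucleotide CG, which reads the same on both strands, occurred a median of 24 times in these 300 bp windows (range 3 to 40), against a median of 15 in the 16522 protein-coding genes matched. Of all matched promoters, 30.5% held 24 or more CG, while 787 of the 16522 held none. By the states described next, over all matched promoters, the median was 23 CG in the active state, 22 with both marks, 13 with H3K27me3 only and 2 in the unmarked state.

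H3K27me3 was nearly constant over the members. A peak was present at 51 to 56 of the 56 promoters in each of the 20 libraries, which is 91.1 to 100% of the members, while 10.2 to 27% of all promoters were marked in the same libraries. At 44 members the peak was present in every library, or 78.6%, against a background of 4.01% of all promoters. Among 62 further genes of the same families this held for 29, or 46.8%. With an equal number of the strongest peaks taken from each library the range was again 51 to 56 members. Peaks were ranked by summed signal, which grows with width, so this check could hardly remove wide domains. The domains were also wide and high in summed signal, and strength was not measured apart from width. The median total signal of the members' peaks lay at percentile 98.8 of all peaks of a library, taken as the median over members, and the median width over the 20 libraries, taken per member, had a median of 8313 bp, quartiles of 5156 and 13204 bp, and a maximum of 20015 bp. In each library the median width over marked members exceeded that over all marked promoters, by a mean ratio of 3.81 ± 0.898 (SD, n = 20 libraries; range 2.42 to 6.26).

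**Figure D1:**
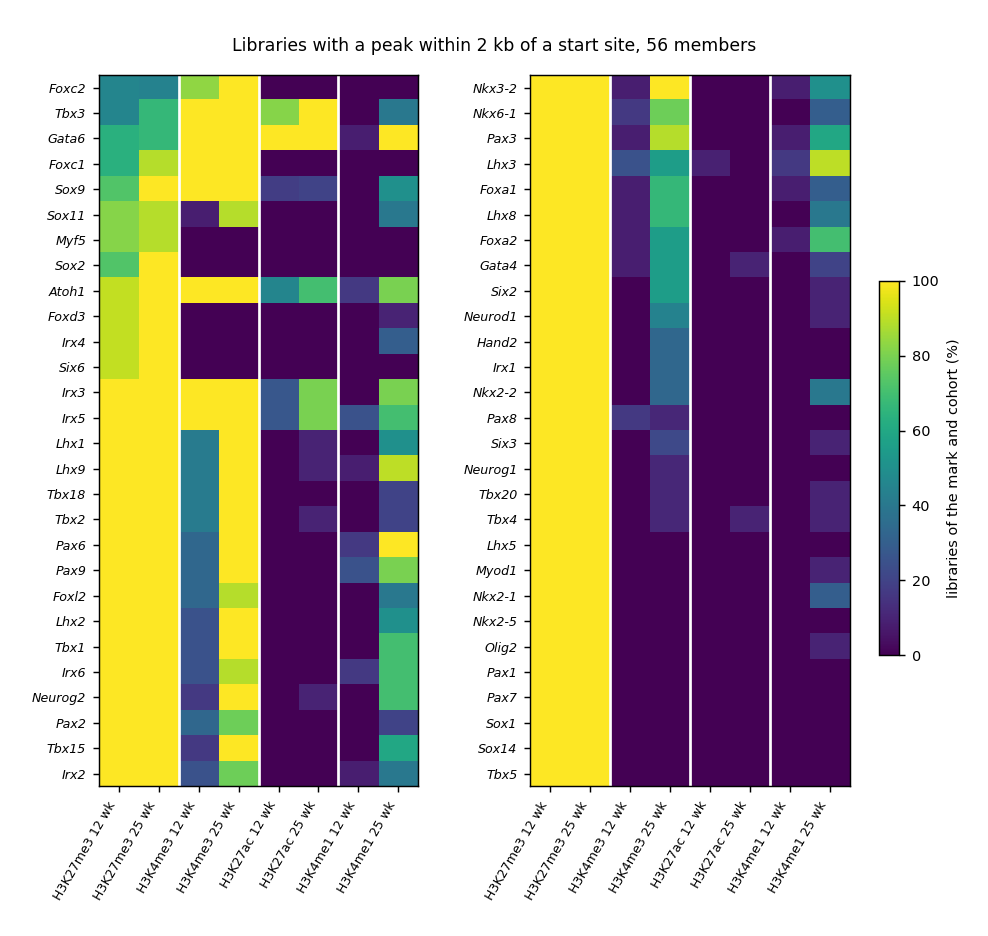
Share of libraries (colour, in %) with a peak within 2 kb of a start site for each of the 56 members (rows), by mark and cohort (columns). H3K27me3 was present in 100% of libraries of both cohorts for 44 members, H3K4me3 was more frequent in the 25-week cohort, and H3K27ac was present in any library at 13 members.

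States were assigned over all libraries of a mark, with present meaning at least 75% of libraries and absent at most 25%. H3K27me3 without H3K4me3 was found at 25 of 56 members, and this state held 5.45% of all promoters. Both marks were present at 5 members, against 1.85% of all promoters. The active state, with H3K4me3 and no H3K27me3, was found at 0 members, although it was the commonest state overall with 47.3% of promoters, and the unmarked state was found at 0 members, against 26% of promoters. The remaining 26 members were intermediate, against 19.4% of promoters, and for 23 of these H3K27me3 was present while H3K4me3 lay between the limits. Among 39 Hox genes, the classical polycomb targets, 11 were H3K27me3 only, 6 were in both, 5 were active and 17 were intermediate. Among 62 further genes of the same families as the members, 16 were H3K27me3 only, or 25.8%, beside 44.6% of the members. Of these 62, 7 were in both, 3 were active, 5 were unmarked and 31 were intermediate. The members thus contained no active promoter while both of these lists did. Among 19 adipocyte transcription factors 14 were active, and among 32 genes of the polycomb machinery itself 28 were active.

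The members with H3K27me3 only came from every family but Gata. Among the bHLH factors they were Myod1 and Myf5, which commit cells to skeletal muscle, Neurog1 and Neurod1, which drive neuronal differentiation, Olig2, which specifies oligodendrocytes and motor neurons, and Hand2, a factor of heart and limb. Among the Nkx factors they were Nkx2-1 (lung and thyroid), Nkx2-2 (neural tube and pancreas) and Nkx2-5 (heart). Pax1, Pax7 and Pax8, of the vertebral column, muscle progenitors and the thyroid and kidney, Lhx5 of the forebrain, the limb and heart factors Tbx4, Tbx5 and Tbx20, and the eye and kidney factors Six2, Six3 and Six6 had the same state. So did Irx1, Irx4, Foxd3 (neural crest), Sox1, Sox2 (neural and pluripotent progenitors) and Sox14. No H3K4me3 peak was listed in any of the 21 libraries at 15 members, which is 26.8% of the members against 27.2% of all promoters. Absence from all libraries was thus as frequent as elsewhere. Within single libraries H3K4me3 was less frequent at members, at a mean of 37.0% of them against 57.8% of all promoters. It was listed in every library at 12.5% of members and 39.3% of all promoters.

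The intermediate members with H3K27me3 present were Pax2, Pax3, Pax6, Pax9, Lhx1, Lhx2, Lhx3, Lhx8, Lhx9, Nkx3-2, Nkx6-1, Tbx1, Tbx2, Tbx15, Tbx18, Irx2, Irx6, Foxa1, Foxa2, Foxl2, Gata4, Sox11 and Neurog2. Their H3K4me3 peaks were more frequent in the 25-week cohort. H3K4me3 was present at 7 to 26 members in the 12 libraries of the 12-week cohort and at 24 to 36 members in the 9 libraries of the 25-week cohort. With an equal number of the strongest peaks taken from each library the ranges were 5 to 8 members (median 7) and 6 to 16 members (median 8). Of the 41 members with H3K4me3 in any library, 33 were marked in a larger share of 25-week libraries, 7 in an equal share and 1, Pax8, in a smaller one. Of all 21938 promoters, 33.03% were marked in a larger share of 25-week libraries. These 21938 include 5959 marked in no library and 8623 marked in every library, neither of which could differ between the cohorts. The bases are thus unlike, and the 2 shares cannot be compared directly. They do not show that the members stood out from other promoters. The cohorts also differed over all promoters, where 41.8 to 60.6% and 62.5 to 66.1% were marked, and cohort, age and library preparation cannot be told apart. H3K4me1 was present at 0 to 7 members per library in the 12-week and 8 to 34 in the 25-week cohort, beside 6.08 to 19.3% and 31.1 to 51.5% of all promoters. With equal peak numbers H3K4me1 lay at 0 to 4 and 0 to 19 members. Members nearest the limits were Foxc1, with H3K27me3 in 15 of 20 libraries, or 75%, Six2, with H3K4me3 in 5 of 21, or 23.8%, and Foxa2 and Gata4, with H3K4me3 in 6 of 21, or 28.6%.

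Position of the peak relative to the start site varied. At 35 members a start site lay inside an H3K27me3 peak in at least 15 of the 20 libraries, and at 7 (Pax6, Pax9, Lhx8, Lhx9, Tbx20, Six3 and Foxa2) in all of them. At Foxa1, a pioneer factor of endoderm, a peak lay within 2000 bp in 20 of 20 libraries, yet the start site itself was inside a peak in 0 of 20. The start site of Irx1 was covered in 1 library, that of Foxc1 in 2 and that of Foxc2 in 3. Pax6 has 8 annotated start sites and the other members have between 1 and 5, which gives Pax6 a wider window.

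H3K27ac singled out a few members. It was present at 1 to 7 members per library, or 1.79 to 12.5% of them, while 17.7 to 55.2% of all promoters were marked. Over all 21 libraries 6 members had it in 2 or more and 7 in exactly 1 (Lhx1, Lhx3, Lhx9, Tbx2, Tbx4, Gata4 and Neurog2). The 6 were Gata6 in 21 of 21 libraries, Tbx3 in 19, Atoh1 in 12, Irx3 and Irx5 in 11 each, and Sox9 in 4. All 6 had H3K4me3 in 21 of 21 libraries, as did Foxc1, which had no H3K27ac peak in any library. Foxc2, a factor of vessel and fat development, had H3K4me3 in 19 of 21 libraries and no H3K27ac.

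Gata6 encodes a zinc-finger factor of endoderm and heart that is also used in peritoneal macrophages and mesothelium. The gene lies on chromosome 18 (11052064 to 11085635, plus strand, GRCm38). Its H3K27me3 was present in 13 of 20 libraries, and these were all 10 libraries of mice that had been fed a high-fat diet and 3 of 10 control libraries. By group the H3K27me3 widths at Gata6 were 613, 0 and 0 bp in C, 2838 and 2299 bp in H, 796, 0 and 0 bp in CC_s, and 779, 674 and 1525 bp in HC. In the 25-week cohort they were 8909 and 0 bp in CC_l, 8501 and 3532 bp in HH, 0 and 0 bp in CCC, and 8551, 1729 and 2178 bp in HHC. Each H library and each HHC library exceeded its controls, and the other groups overlapped. Wider domains without overlap were found for 4.75% of the promoters tested for H3K27me3 in H and 13.97% in HHC. A peak in every diet library and in at most 3 controls, a limit set after these values were seen, was found for 0.0638% of all promoters, and for no other member. On domain width the changes of Gata6 H3K27me3 did not pass the test, with a log2 change of 1.85 ± 0.70 (SE) for the obese groups over both cohorts (limma, adjusted p = 0.118) and 2.00 ± 0.63 for the weight-loss groups (adjusted p = 0.0613).

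H3K4me3 and H3K27ac, the marks of activity, were narrower at Gata6 in H. H3K27ac widths at Gata6 were 5186, 6005 and 2293 bp in C and 1166, 364 and 597 bp in H, with a log2 change of -2.01 ± 0.47 (SE; limma, adjusted p = 0.0173). They were 3455 and 5217 bp in CC_s and 912, 1289 and 1081 bp in HC, 5354 and 6015 bp in CC_l and 2074, 2428 and 3297 bp in HH, and 6026 and 4139 bp in CCC and 2490, 5155 and 1329 bp in HHC. The groups did not overlap in H, HC and HH and overlapped in HHC. Of all promoters tested for H3K27ac, 38.2%, 16.1% and 9.99% were narrower without overlap in H, HC and HH. At Gata6 only the change in H passed the test, and not after quantile normalization between libraries (log2 change -0.90, adjusted p = 0.483). Gata6 H3K4me3 domains were 6406, 9944 and 9487 bp in C and 1898, 2126 and 1887 bp in H, with a log2 change of -1.86 ± 0.33 (limma, adjusted p = 0.00499), and that change in H3K4me3 was also called after quantile normalization, at -1.24 (adjusted p = 0.0409). Of the promoters tested, 6.9% were called narrower for H3K27ac and 14.1% for H3K4me3 in H. The median log2 change in H3K4me3 width over all promoters tested was -0.62 in H. Between the chow-fed groups, CC_s against C, it was -0.55. In the 11 animals with both H3K4me3 and H3K27me3 at Gata6, of 16 in which both libraries could be matched by group and replicate number, the peaks of both marks overlapped each other within the window in 11.

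**Figure D2:**
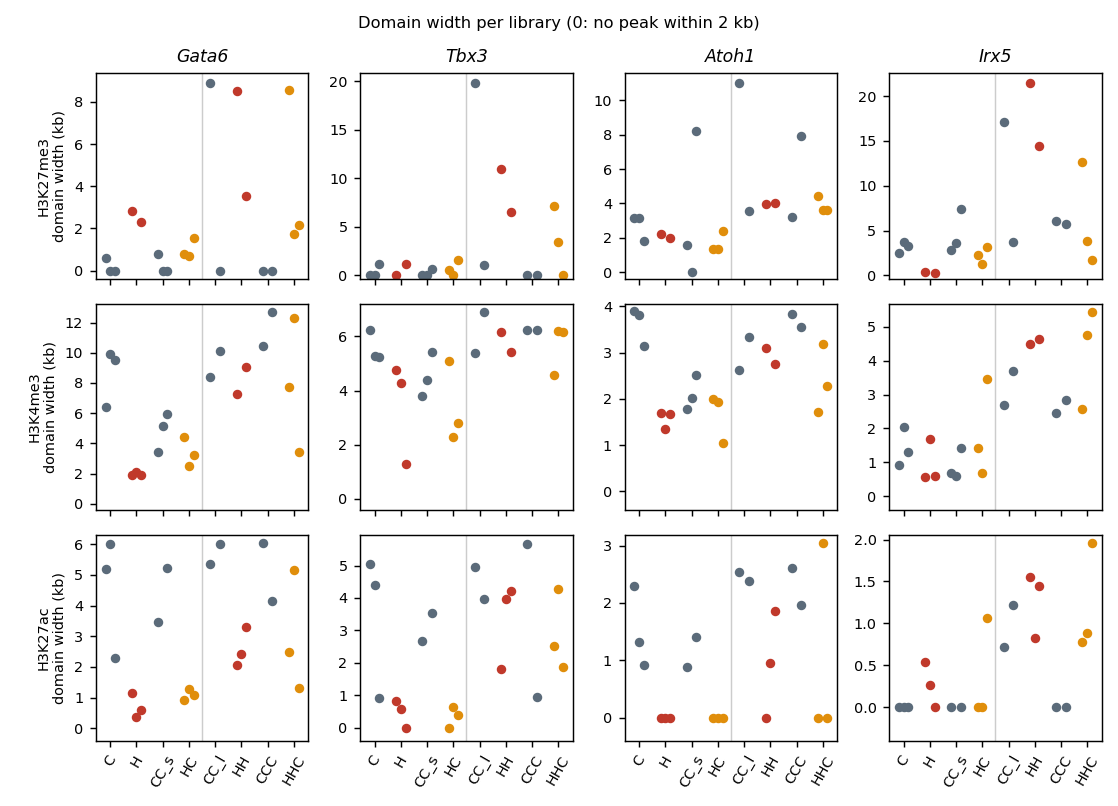
Domain width in kb (vertical axis) of H3K27me3, H3K4me3 and H3K27ac (rows) at Gata6, Tbx3, Atoh1 and Irx5 (columns) in each library, by diet group, with controls in grey, obese groups in red and weight-loss groups in orange. At Gata6, H3K27me3 was at 0 in 7 of 10 control libraries and in no diet library, and at Atoh1, H3K27ac was at 0 in all H and HC libraries.

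H3K27ac peaks of the whole library covered 42.8 to 48.97 Mb in C and 9.6 to 24.4 Mb in H, and 25.2 to 43.8 Mb in CC_s and 11.6 to 34.7 Mb in HC. The part of this difference in the H3K27ac values of Gata6, Atoh1 and Tbx3 was not tested.

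Atoh1, on chromosome 6, encodes a bHLH factor of cerebellar granule neurons, hair cells and secretory cells of the gut. Its H3K4me3 was present in 21 of 21 libraries at a median signal percentile of 91.1, and its H3K27me3 in 19 of 20. H3K27ac at Atoh1 was present in all 9 control libraries and in 3 of 12 libraries of diet-fed mice. Its H3K27ac widths were 2291, 1311 and 926 bp in C, 880 and 1411 bp in CC_s, 2548 and 2379 bp in CC_l, and 2604 and 1965 bp in CCC. They were 0 bp in all H and HC libraries, 0, 950 and 1854 bp in HH, and 0, 3038 and 0 bp in HHC. A peak in every control library and in at most 3 diet libraries, again a limit set afterwards, was found for 0.0638% of all promoters, and for no other member. The fitted log2 changes at Atoh1 did not pass the test, at -1.95 ± 0.67 (SE) in H (limma, adjusted p = 0.0698) and -1.61 ± 0.53 over both weight-loss comparisons (adjusted p = 0.174). Its H3K4me3 fell in H, from 3910, 3807 and 3147 bp in C to 1702, 1349 and 1675 bp (log2 change -0.99 ± 0.24, adjusted p = 0.0148), a call lost after quantile normalization at -0.40 (adjusted p = 0.516), while its H3K27me3 in H was 2231 and 1965 bp against 3135, 3176 and 1802 bp. H3K4me3 and H3K27me3 peaks overlapped within the Atoh1 window in 15 of 15 animals that had both.

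Tbx3, a repressor of limb, mammary and cardiac development, had H3K4me3 in all libraries at a median signal percentile of 97.9. H3K27ac at Tbx3 was 5046, 4414 and 922 bp in C and 805, 581 and 0 bp in H, and 2666 and 3545 bp in CC_s and 0, 650 and 401 bp in HC. The groups did not overlap in either comparison, where 38.2% and 16.1% of all promoters tested for H3K27ac were narrower without overlap. Neither change at Tbx3 passed the test (limma, adjusted p = 0.0508 and 0.819). In the 25-week cohort the Tbx3 H3K27ac widths were 4959 and 3954 bp in CC_l and 1800, 3975 and 4208 bp in HH, which overlapped. H3K27me3 at Tbx3 was present in 11 of 20 libraries, with 4 of 10 controls, and reached 19846 bp in a CC_l library and 10908 bp in an HH library.

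Irx3 and Irx5 are neighbouring homeobox genes on chromosome 8, known for a role in adipocyte thermogenesis, and both carried both marks. At Irx5, H3K27ac was present in 3 of 3 HHC libraries (775, 889 and 1960 bp), 3 of 3 HH libraries (1554, 819 and 1445 bp) and 2 of 2 CC_l libraries (716 and 1223 bp), and in 0 of 2 CCC and 0 of 3 C libraries. H3K27ac at Irx5 was thus listed in 9 of 12 diet-fed and 2 of 9 control libraries. These peaks were weak, at a median signal percentile of 23.6, and covered a start site of Irx5 in 0 of the 11 libraries. The share of all promoters with such a split was not computed. Of the CCC libraries without it, replicate 3 had 14917 peaks over 20.9 Mb and replicate 1 had 32907 over 94.3 Mb. The change in HHC did not pass the test (limma log2 change 1.71 ± 0.60, adjusted p = 0.0975). Irx3 H3K27ac was present in 8 of 12 diet libraries and 3 of 9 controls. H3K27me3 at Irx3 was 9647, 4620 and 8381 bp in C and 2445 and 1511 bp in H, 2815, 2762 and 4608 bp in CC_s and 2296, 527 and 4149 bp in HC. In the 25-week cohort it was 16301 and 10030 bp in CC_l, 11463 and 2844 bp in HH, 5101 and 3751 bp in CCC, and 7712, 6862 and 3196 bp in HHC. The Irx3 groups did not overlap between H and C and overlapped in the other comparisons, and 0 of these changes passed the test. In H, 48 of 56 members and 28.6% of all promoters tested were narrower for H3K27me3 without overlap. H3K27me3 at Irx5 was 2529, 3748 and 3234 bp in C and 366 and 331 bp in H, a log2 change of -2.10 ± 0.67 (limma, adjusted p = 0.0484), which was lost after quantile normalization at -1.045 (adjusted p = 0.345). Where both marks were listed in 1 animal their peaks overlapped in 15 of 16 animals at Irx3 and in 16 of 16 at Irx5.

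Sox9, a factor of cartilage and of progenitor cells, had H3K27ac in 4 of 9 controls and in 0 of 12 diet libraries, with H3K4me3 of 3230, 3857 and 2619 bp in C and 902, 496 and 851 bp in H (limma log2 change -1.58 ± 0.35, adjusted p = 0.00982). The Sox9 call was lost after quantile normalization, at -0.88 (adjusted p = 0.197). At Foxc1, a factor of mesenchyme and the eye, H3K27me3 was present in all 10 diet libraries and in 5 of 10 controls, and at Foxc2 in 7 of 10 and 2 of 10. The Foxc1 widths were 1759, 0 and 0 bp in C, 1552 and 1476 bp in H, 0, 1072 and 0 bp in CC_s, and 1185, 137 and 2025 bp in HC. In the older cohort they were 14113 and 0 bp in CC_l, 9513 and 8216 bp in HH, 1844 and 2781 bp in CCC, and 11675, 9050 and 1913 bp in HHC, so that all 4 pairs of groups overlapped at Foxc1. At Sox9 the H3K27me3 widths were 791, 0 and 3522 bp in C, 913 and 717 bp in H, 3782, 1190 and 0 bp in CC_s, and 0, 425 and 1698 bp in HC. The H3K27me3 change at Foxc1 over both obese comparisons did not pass the test (limma log2 change 1.54 ± 0.75, adjusted p = 0.232). H3K27ac was listed at 2 to 3 of 11 macrophage markers in 12-week controls and 0 to 8 in diet libraries. In the 25-week cohort it was at 2 to 6 and 4 to 11, so that the ranges overlapped in both. H3K4me3, grouped by title, was at 3 to 6 macrophage markers in 25-week controls and 10 to 11 in diet libraries, without overlap. For lymphocyte markers it was 0 to 2 and 3 to 8 of 8, again without overlap. For endothelial markers it was 1 to 5 and 3 to 7 of 8, which overlapped. In the 12-week cohort the H3K4me3 ranges of macrophage markers (0 to 5 and 0 to 11) and lymphocyte markers (0 to 2 and 0 to 4) overlapped. Mesothelial markers had H3K27ac at 0 of 7 in all 12-week libraries and at 0 to 2 in 25-week libraries, and the part of other cells in the values of Gata6, Tbx3 and Irx5 was not tested.

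Whether obesity or weight loss switched the marks of lineage factors was asked first by presence, with gained meaning a peak in every diet library and in no control library, and lost the reverse. Over 4 marks and 4 diet comparisons, 7 gains and 6 losses fell on members. For H3K27me3, 0 members were gained or lost in H (background 2.89% of promoters), HC (0.989%) and HH (1.99%), and 1, Gata6, was gained in HHC (background 1.36%). So the presence of H3K27me3 at the other 55 promoters met neither rule in any of the 4 comparisons. Between controls of different age, Tbx3 lost H3K27me3 from CC_l to CCC (1.03%).

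For H3K4me3 the losses in H were Foxl2 (ovary), Pax9 (teeth and thymus) and Tbx18 (heart and ureter), against a background of 1.7% of promoters. Their widths in C were 734, 1087 and 1012 bp at Foxl2, 718, 1095 and 1157 bp at Pax9, and 2043, 2347 and 753 bp at Tbx18, and each was 0 in all 3 H libraries. Between the chow-fed groups Foxl2, Pax9, Lhx1 and Tbx2 were lost from C to CC_s (background 1.73%). In HC 0 members were gained or lost (background 0.337%). In HH Gata4, Hand2 and Lhx8 were gained (1.32%) and in HHC Irx1 was lost (0.374%). Both of these rest on libraries whose title and treatment field disagree. With groups from the treatment field, Foxa1 and Six2 were gained in HH, Six2 was gained in HHC and 0 members were lost. With the 4 libraries left out no HH library remained, and in HHC against the single CCC library left, Irx1 and Tbx4 were lost and Lhx8 and Six2 were gained.

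For H3K27ac, Atoh1 was lost in H (background 1.93%) and in HC (0.497%), 0 members were gained or lost in HH (0.852%), and Irx5 was gained in HHC (2.32%). Irx5 was itself lost from CC_l to CCC among controls (0.857%). For H3K4me1, 0 members were gained or lost in H (0.912%), HC (0.319%) and HH (2.69%). Foxl2 (1941, 2161 and 6573 bp) and Lhx2 (5977, 3152 and 1701 bp) were gained in HHC, where both CCC libraries were at 0 (3.99%), and Nkx6-1 was gained from CC_l to CCC (2.31%).

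H3K27me3 domains that stayed in place became narrower in the 12-week cohort. The median width over marked members was 10226 to 11828 bp in C and 2764 to 2806 bp in H, 8121 to 13272 bp in CC_s and 1287 to 5160 bp in HC. The members' median share of the 10000 bp on either side that was covered by peaks fell alongside, from 70.99 to 83.2% in the 12-week controls to 18.1 to 63.6% in H and HC. In the 25-week cohort it was 72.6 to 91.8% in controls and 53.4 to 86.9% in HH and HHC, which overlapped. The whole libraries moved in the same direction. The median width of all H3K27me3 peaks was 1097 to 1425 bp in C and CC_s and 332 to 914 bp in H and HC, and these groups did not overlap, whereas in the 25-week cohort it was 1259 to 1856 bp and 1071 to 1831 bp. The ratio of the members' median width to that of all marked promoters was 3.46 to 4.97 in 12-week controls and 2.56 to 3.75 in H and HC, and 3.96 to 6.26 and 2.42 to 4.51 in the 25-week cohort. How much of the narrowing belongs to the libraries and how much to the members was not tested.

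**Figure D3:**
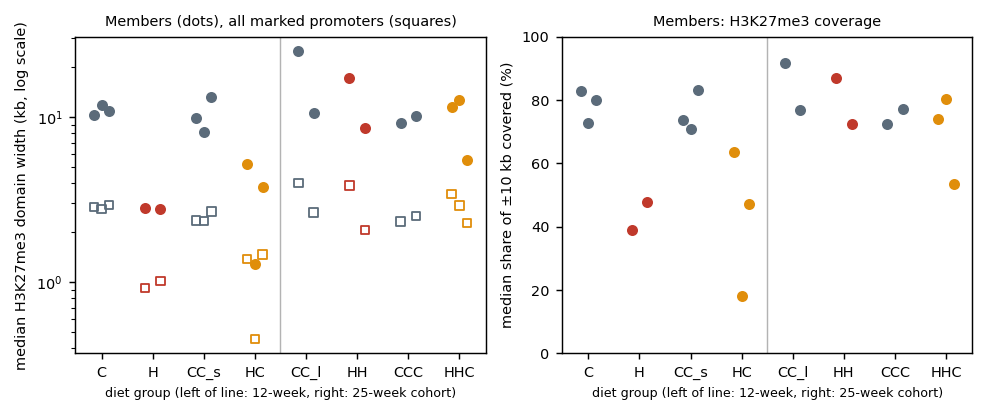
Left, median H3K27me3 domain width (kb, log scale) per library over marked members (dots) and over all marked promoters (squares), by diet group. Right, the members' median share of the 10 kb on either side covered by H3K27me3 peaks. H and HC lie below their controls in both panels, for members and for all marked promoters alike, and the 25-week groups overlap.

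In the test on log2 width over 6734 promoters, 19 of 56 members were narrower in H, or 33.9%, against 8.39% of all promoters, and 14 in HC, or 25%, against 6.64%. None was wider. In HH 0 of 56 members were called (background 0%), with 1 member at an unadjusted p under 0.05, and in HHC 0 were called narrower (background 0.0594%), with 6 members at an unadjusted p under 0.05. The median log2 change over members was -1.68, -1.34, -0.35 and -0.08 in H, HC, HH and HHC, beside -0.32, -0.41, -0.04 and 0.29 over all promoters tested. Members and background differ in starting width. The median width per promoter had a median of 8313 bp over members. Over all promoters with H3K27me3 in any library it was 0 bp, with an upper quartile of 1216 bp. A domain at or near 0 bp can hardly become narrower, also without overlap. The part of starting width in these shares and medians was not tested. Averaged over both cohorts, 9 members were narrower in obesity (background 3.19%) and 9 in weight loss (background 3.96%). After quantile normalization, which makes the width distributions of all libraries equal, 2 members were called in H and 1 in HC, and the median over members was -0.33 and 0.01. The difference between the cohorts was not shown for any single member, since 0 of 56 passed the test of 25 minus 12 weeks for H3K27me3 in obesity or in weight loss.

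**Figure D4:**
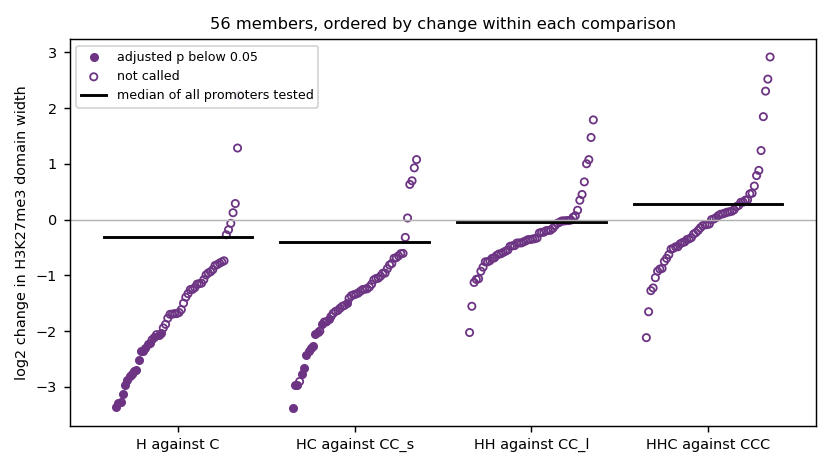
Log2 change in H3K27me3 domain width of each of the 56 members in the 4 diet comparisons, ordered by size within each, with filled points for an adjusted p below 0.05 and a black bar for the median of all promoters tested. In H and HC the members lie mostly below the bar, at medians of -1.68 and -1.34, and no point is filled in HH and HHC.

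The members with the widest domains show the size of this difference. At Olig2 the H3K27me3 domain was 16056, 21985 and 22174 bp in C and 2366 and 2420 bp in H, and 17180, 20251 and 19779 bp in CC_s and 4253, 1439 and 2024 bp in HC. Both changes passed the test (limma log2 change -2.82 ± 0.58, adjusted p = 0.0053, and -2.77 ± 0.52, adjusted p = 0.00541). Both Olig2 calls were lost after quantile normalization, at -1.42 (adjusted p = 0.0591) and -1.45 (adjusted p = 0.0753). In the 25-week cohort the Olig2 widths were 30523 and 20665 bp in CC_l, 34022 and 18019 bp in HH, 22095 and 21713 bp in CCC and 22545, 28713 and 5550 bp in HHC, which overlapped. At Pax2, of the kidney and inner ear, the widths were 30116, 27295 and 23971 bp in C and 2037 and 2284 bp in H (log2 change -3.37 ± 0.71, adjusted p = 0.0054), and this change was also called after quantile normalization, at -1.99 (adjusted p = 0.0373). Pax6, the eye and forebrain factor, went from 20615, 19706 and 25397 bp in C to 9335 and 9618 bp in H without passing the test. Lhx2 (18432, 21483 and 18307 bp against 7579 and 9536 bp) and Six2 (25250, 18426 and 22200 bp against 4590 and 1589 bp) did not overlap between C and H either. Such narrowing without overlap in H was found for 48 of 56 members and for 28.6% of all promoters tested. Of Lhx2 and Six2, Six2 passed the test (log2 change -2.77 ± 0.69, adjusted p = 0.0128), though not after quantile normalization (-1.27, adjusted p = 0.134).

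The 9 members narrower in both H and HC were Foxa1, Foxa2, Foxd3, Hand2, Irx4, Nkx2-2, Olig2, Pax2 and Sox11. At Foxa2, an endoderm factor, the widths were 28443, 19697 and 17531 bp in C and 1615 and 2450 bp in H (limma log2 change -3.13 ± 0.52, adjusted p = 0.00138), the smallest adjusted p among the members in H, and the Foxa2 call in H held after quantile normalization at -1.76 (adjusted p = 0.018). At Irx4, a ventricle factor, they were 17539, 20106 and 18471 bp in CC_s and 4776, 0 and 1860 bp in HC (log2 change -3.38 ± 0.57, adjusted p = 0.00192), and the Irx4 call held after quantile normalization at -2.65 (adjusted p = 0.0273). Called in H alone were Irx2, Irx5, Lhx3, Pax3, Pax7, Six2, Six6, Sox14, Tbx5 and Tbx15, and in HC alone Foxl2, Myod1, Nkx2-1, Sox1 and Tbx20. These calls rested on few libraries, since without H replicate 1 the count in H was 1, without H replicate 2 it was 5, and without C replicate 3 it was 10. Without HC replicate 2, whose peaks covered 8.54 Mb against 30.2 and 36.3 Mb in the other HC libraries, the count in HC was 4 and that in H was 30. It was 29 in HC without HC replicate 1, and 6, 8 and 2 without CC_s replicates 1, 2 and 3.

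An H3K27me3 domain narrower in each of the 4 diet comparisons with no overlap between groups was found at 1 of 56 members, Irx2. The same was found for 1.44% of the promoters tested, so the members' share was near that of all promoters. Irx2 lies on chromosome 13 (72628820 to 72634198, plus strand) and belongs to the Iroquois factors of neural and heart patterning. Its widths were 9630, 5996 and 14414 bp in C and 2041 and 1726 bp in H, and 10319, 7526 and 11454 bp in CC_s and 5479, 2366 and 3390 bp in HC. In the 25-week cohort they were 31399 and 24338 bp in CC_l and 7311 and 5611 bp in HH, and 11460 and 17262 bp in CCC and 6707, 8094 and 5218 bp in HHC. Over both cohorts the log2 change of Irx2 was -2.04 ± 0.38 in obesity (limma, adjusted p = 0.00589) and -1.18 ± 0.34 in weight loss (adjusted p = 0.0452), and the change in obesity was also called after quantile normalization at -1.24 (adjusted p = 0.0476) while that in weight loss was not (-0.53, adjusted p = 0.261). A domain narrower without overlap in at least 3 of 4 comparisons was found for 11 of 56 members (Foxa2, Irx1, Irx2, Irx4, Myod1, Nkx2-2, Pax1, Pax2, Sox11, Tbx15 and Tbx18) and for 6.64% of the promoters tested. The 9 members called narrower in obesity over both cohorts were Irx2, Foxa2, Pax2, Sox14, Tbx5, Foxd3, Six6, Irx4 and Tbx15, and those in weight loss were Irx4, Pax2, Sox11, Olig2, Foxl2, Foxd3, Foxa2, Irx2 and Tbx18, with 5 in common. These counts over both cohorts ranged from 0 to 20 in obesity and from 0 to 15 in weight loss when 1 library was left out. In obesity 0 members were called without CC_l replicate 1, 1 without HH replicate 3 or H replicate 1, and 2 without C replicate 1. In weight loss 0 were called without CCC replicate 1 or CCC replicate 3, and 1 without CC_s replicate 3.

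**Figure D5:**
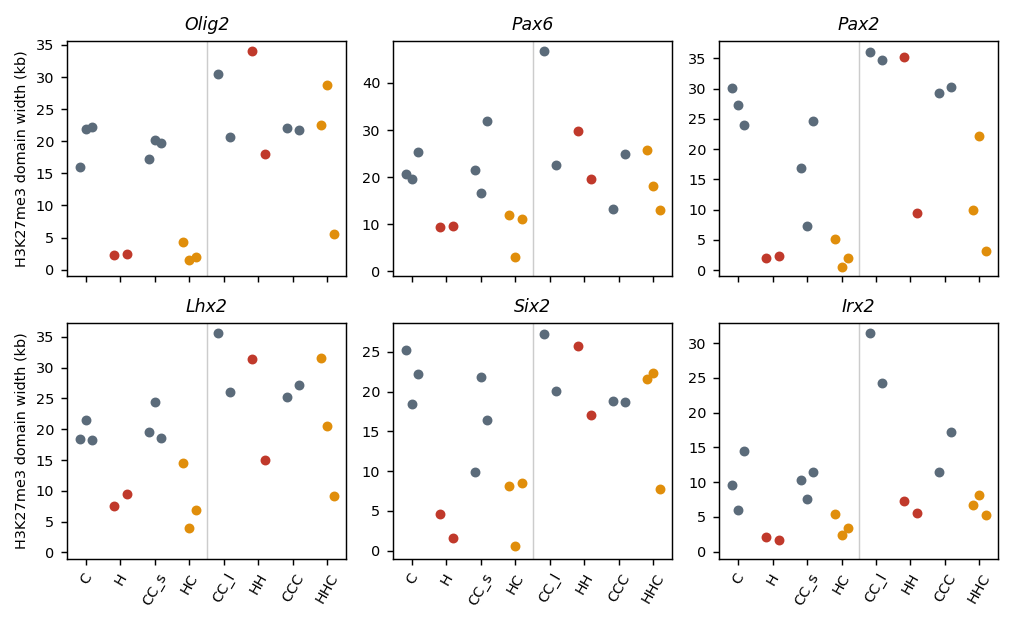
H3K27me3 domain width in kb per library (vertical axis, from 0) by diet group at the 5 members with the widest domains and at Irx2, with controls in grey, obese groups in red and weight-loss groups in orange. At Irx2 all diet libraries lie below their own controls, whereas at Olig2 this holds in the 12-week cohort and the 25-week groups overlap.

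H3K27me3 domains of related genes were also narrower at the median in H and HC. Among 37 Hox genes tested, 2 were narrower in H and 7 in HC, or 5.41% and 18.9% beside 8.39% and 6.64% of all promoters, with median log2 changes of -1.003 and -1.25, and among 57 further genes of the same families 9 and 7 were narrower, or 15.8% and 12.3%, and 1 was wider in H, with medians of -1.22 and -1.32. In HH and HHC 0 of either list were called, and in HHC the Hox median was 0.36 while that of the members was -0.08. Of the 7 adipocyte transcription factors tested for H3K27me3 0 were called narrower and 1 was wider, in HHC. Of the 8 genes of the polycomb machinery that could be tested for H3K27me3 0 were called in any of the 4 comparisons. For H3K4me3 in H, 9 of 19 adipocyte factors (47.4%) and 6 of 32 polycomb genes (18.75%) were narrower, beside 14.1% of all promoters. For H3K27ac in H they were 8 of 19 (42.1%) and 3 of 29 (10.3%), beside 6.9%.

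Domain width of the other marks was testable at few members, because a promoter needed a peak in at least 3 libraries. For H3K4me3, 7 of 37 members tested were narrower in H (background 14.1%), namely Gata6, Pax9, Sox9, Tbx18, Atoh1, Foxl2 and Foxc2, so the members' share of 18.9% was near that of all promoters. Without C replicate 2 this count was 2, and after quantile normalization it was 1, Gata6. The median log2 change over members was -0.67 in H and -0.66 between the chow-fed groups, CC_s against C. In that chow comparison 518 of 14665 promoters were called narrower, among them Pax9 at -1.56 (limma, adjusted p = 0.0179), the value it also had in H. In HHC Irx1 was narrower (log2 change -1.72 ± 0.35, adjusted p = 0.00871, background 0.443%), from 1180 and 1126 bp in CCC to 0 in all HHC libraries, and 1 of those CCC libraries has a conflicting treatment field. With groups from the treatment field the Irx1 change was -0.87 (adjusted p = 1), after quantile normalization it was -0.73 (adjusted p = 0.265), and without either CCC library too few libraries had a peak for a test. For H3K27ac, 6 members were tested and Gata6 in H was the only call (background 6.9%). For H3K4me1, 28 were tested, and in HHC Foxl2 and Lhx2 were wider (log2 changes 2.84 ± 0.56 and 2.90 ± 0.81, adjusted p = 0.00158 and 0.0196, background 10.1%) and Nkx6-1 was narrower (-1.82 ± 0.50, adjusted p = 0.0171, background 1.08%). After quantile normalization the calls of Foxl2 (1.25, adjusted p = 0.0673) and Lhx2 (1.18, adjusted p = 0.402) were lost and that of Nkx6-1 was kept (-1.285, adjusted p = 0.00527). The Nkx6-1 widths were 2374 and 2411 bp in CCC, 0, 0 and 1693 bp in HHC, and 0 in the 17 other libraries. H3K4me1 was listed in 4 of 22 libraries at Foxl2, 5 at Lhx2 and 3 at Nkx6-1. Each met the filter only through the group where it was wide, HHC for Foxl2 and Lhx2 and CCC for Nkx6-1. These calls are therefore no independent support for a change.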

How the data were processed

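CUT&Tag reads were trimmed, aligned to mm10 (GRCm38) and turned into coverage tracks by the authors, with Trim Galore 0.6.6, Bowtie2 2.4.4, SAMtools 1.13, bedtools 2.30 and SEACR 1.3 listed in the submitters' processing notes. Peaks were called by the authors per library in stringent mode at a threshold of 0.01, and the deposited lists give each peak's summed signal (coverage). The study's methods name a blacklist filter, and the lists were used as deposited. Read depth is not given in the files, and coverage was not compared between libraries. The lists held 11249 to 46397 peaks.

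Promoters were windows of 2000 bp around 41525 start sites of 21938 protein-coding genes (GENCODE vM21 basic), marked by at least 1 bp of overlap (bedtools 2.31.1, pandas 2.3.3, numpy 2.4.6). Domain widths were tested as log2(width + 500 bp) with limma 3.58.1 (R 4.3.3, trend, Benjamini-Hochberg, threshold 0.05), all groups of a mark in 1 fit, for promoters with a peak in at least 3 libraries. A fold on this scale understates changes of narrow domains. Scripts were tested on simulated data. Samples were grouped by title. Each member was named with its state, and values were given first for members with both marks, then for limma calls, gains and losses, the 5 widest H3K27me3 domains and members nearest the state limits. Gata6, Tbx3 and Foxc2 were described after their values were seen. No member was active, so the first 3 promoter sequences came from members with both marks. The members, gene lists and tests were chosen with earlier results of these data known. Alternatives were a 500 bp window, the 50% of peaks with the highest signal, equal peak numbers, other state limits, covered bp, joined peaks, no filter, quantile normalization, the replicate block, the treatment field, and leaving out each library or, chosen after seeing the data, the 4 libraries with conflicting labels. Replicates are labelled as biological. The same replicate number did not pair the samples (correlation of deviations -0.395 to 0.185, median -0.0077, over 36 pairs).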

Additional observations from a re-analysis of the deposited data

Results flagged for a closer look

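Groups held 2 or 3 libraries, so that no sample could be tested as standing apart within its group. Foxl2 H3K4me1 was called as different between the cohorts in weight loss. Its change in HHC exceeded the change in HC by 2.84 on the log2 scale (limma, adjusted p = 0.0408). Foxl2 H3K4me1 was listed in 4 of 22 libraries and met the filter only through HHC, the group where it was wide. The call is therefore no independent support for a difference. All 12-week libraries were at 0 for Foxl2 H3K4me1, so that this value equals the change in HHC. After quantile normalization the difference at Foxl2 was 1.42 and did not pass the test (adjusted p = 0.404).

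H3K4me3 domains of 4 members were narrower without overlap in H and wider without overlap in HH, each against its control. Over all promoters tested for H3K4me3, 43.2% were narrower without overlap in H and 42.1% were wider without overlap in HH. The 25-week change exceeded the 12-week change by 3.21 at Foxl2, 2.89 at Tbx18, 1.69 at Lhx1 and 1.46 at Irx3, on the log2 scale. None of these differences passed the test (limma, adjusted p = 0.0623 at Foxl2, 0.073 at Tbx18, 0.155 at Lhx1 and 0.123 at Irx3). Both HH libraries and 1 of the 2 CC_l libraries behind them have conflicting labels, and without these no HH library remained.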

How the results depend on the processing

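The count of members with H3K27me3 only was 25, and it was 39 with the 50% of peaks of highest signal and 48 with equal peak numbers. The intermediate count of 26 became 14 and 4 under the same settings. The count with both marks was 5, and it was 2 with a 500 bp window, 3 with the 50% of peaks of highest signal and 3 with limits of 90% and 10%. The active count of 0 became 1 with the 500 bp window. Gains and losses for H3K27me3 numbered 1, and 7, 4 and 2 with the 500 bp window, the strongest 50% of peaks and equal peak numbers. For H3K27ac the 3 became 0, 0 and 1 under those settings, for H3K4me3 the 7 became 0 with equal peak numbers, and for H3K4me1 the 2 became 1 with the 500 bp window.

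The number of members called narrower for H3K27me3 depended on the measure. In H, 19 became 5 on covered bp, 4 with joined peaks, 30 without the filter and 2 after quantile normalization. In HC, 14 became 7, 1, 4 and 1. Over both cohorts, 9 became 0, 0, 3 and 1 in obesity, and 2, 1, 1 and 4 in weight loss. The 7 members called for H3K4me3 in H became 2 with the strongest 50% of peaks, 1 with equal peak numbers and 1 after quantile normalization. The cause was not tested.

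Leaving out 1 library gave 1 to 5 gains and losses for H3K27me3, 7 to 12 for H3K4me3, 3 to 6 for H3K27ac and 2 to 7 for H3K4me1. Members called narrower for H3K27me3 ranged from 1 to 30 in H, 2 to 29 in HC, 0 to 0 in HH, 0 to 1 in HHC, 0 to 20 in obesity and 0 to 15 in weight loss, and for H3K4me3 in H from 2 to 9. An H group left with 1 library was assumed to vary like the other groups. With the replicate number as a block the counts were 18 in H, 14 in HC, 0 in HH, 0 in HHC, 6 in obesity, 6 in weight loss and 6 for H3K4me3, and since the numbers did not pair the samples this is no measure of a weaker effect.

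For single members, 67 calls were recomputed under 2090 alternatives, of which 1511 stayed past the threshold, 579 did not and 0 changed sign. Many of these left out a library outside the comparison, so the total does not measure robustness. After quantile normalization 11 calls stayed and 56 did not, with joined peaks 19 and 48, and on covered bp 28 and 39. Without the filter 35 stayed and 32 did not, and with the 500 bp window 47 and 20. A peak list of unknown depth limits these results, because a promoter under a library's threshold has a width of 0 whatever its mark, and groups of 2 or 3 libraries leave each count open to 1 library.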
